A study of Homo sapiens with 24 samples.

Results

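The genes described here are the vitamin D receptor VDR, its heterodimer partners RXRA, RXRB and RXRG, and the receptor cofactors NCOA1, NCOA2, NCOA3, MED1 and NCOR1. They were taken by symbol from the table that names the array's probe sets, and 9 probe sets of 7 of the 9 genes were found among the 21214 probe sets that carry a gene symbol. RXRB had 3 probe sets, annotated to the same transcripts, and each of the others had 1. NCOA3 and NCOR1 had no probe set under their symbols and were not analysed here. Expression was measured on 24 Affymetrix arrays of GM10855 and GM10861, HapMap lines of human B cells immortalised by Epstein-Barr virus (B-lymphoblastoid lines). Cells of either line were taken untreated at 0 h, or at 36 h after calcitriol, estrogen or the pair of agents, which made 8 groups with 3 arrays in each. Doses, the estrogen compound and a vehicle were not stated in the labels. The untreated groups exist at 0 h and not at 36 h, so in a comparison with them the agent and the 36 h of culture cannot be told apart, whereas the treated groups were matched for time. Each line is cells of 1 origin, and nothing says that arrays of a group stand for separate cultures, so p-values measure only how far these arrays spread, which can be technical error.

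VDR is the nuclear receptor for calcitriol, which is the active hormone made from vitamin D. With its ligand it binds DNA as a heterodimer with a retinoid X receptor, at response elements made of a pair of hexamers in direct repeat. The bound pair recruits coactivators, among them the steroid receptor coactivators NCOA1, NCOA2 and NCOA3 and the Mediator complex through MED1, while the corepressor NCOR1 belongs to a histone deacetylase complex that represses targets of unliganded nuclear receptors. Activated B cells are known to express VDR and to respond to calcitriol.

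The median log2 signal per array ranged from 5.38 to 5.50, and Pearson's r between arrays within a group from 0.985 to 0.993 across probe sets. Of 10 measured B cell marker probe sets, 9 had a mean above the median of all named probe sets (5.80), against 0 of 7 for T cells, 0 of 7 for monocytes, 1 of 5 for natural killer cells and 1 of 5 for fibroblasts. The defining B cell gene MS4A1 was among the markers measured. Of the 10 B cell markers, CD79A, CR2 and PAX5 were called higher in both comparisons of calcitriol below, and the others in neither. Over all probe sets, limma called 0.679% in calcitriol against untreated and 0.754% in calcitriol added to estrogen. Among the markers not called in the latter, CD79B, BLNK, CD72 and CD37 had negative estimates and MS4A1, CD22 and FCER2 positive ones. The summed log2 signal of the B cell list ranged from 80.3 to 83.8 over the groups. The sums of the other lists ranged from 32.4 to 32.9 (T cells), 20.0 to 21.0 (natural killer cells), 30.4 to 31.8 (monocytes) and 22.0 to 22.5 (fibroblasts), and limma called 0 of their members in those comparisons, with 1 monocyte probe set at an unadjusted p under 0.05 when calcitriol was added to estrogen. The part of these markers in the results was not tested, and in bulk RNA fewer cells of a type and less RNA per cell cannot be told apart.

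VDR was the gene of the group that rose with calcitriol. The VDR probe set (Entrez 7421) read 5.08, 5.05 and 4.81 in the untreated arrays of GM10855 and 5.38, 5.50 and 5.60 in its calcitriol arrays. In GM10861 it read 4.97, 4.85 and 4.93 untreated and 5.35, 5.25 and 5.28 with calcitriol. In both lines every calcitriol array lay above every untreated array. The change averaged over both lines was 1.36-fold, a log2 change of 0.44 ± 0.0623 (SE, 95% interval 0.32 to 0.57, adjusted p = 2e-04 in limma), seen in 6 of 6 calcitriol arrays. VDR was thus 1 of 9 probe sets called, where 0.679% of all probe sets tested were called. An exact permutation of the agent labels within each line gave a two-sided p = 0.005, the smallest that its 400 arrangements allow.

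VDR also rose when calcitriol was added to estrogen. The estrogen arrays read 5.03, 5.08 and 4.95 in GM10855 and 4.98, 4.96 and 5.05 in GM10861. Arrays with both agents read 5.40, 5.63 and 5.43 in GM10855 and 5.04, 5.08 and 5.31 in GM10861. The groups did not overlap in GM10855, while in GM10861 the lowest array with both agents lay inside the range of the estrogen arrays. The change when calcitriol was added to estrogen, at matched times, was 0.31 ± 0.0623 on the log2 scale (95% interval 0.18 to 0.44, adjusted p = 0.0134 in limma; exact permutation p = 0.01, two-sided, smallest possible 0.005). VDR was again 1 of 9 probe sets called, against 0.754% of all. That call was lost when array 3 of the pair of agents in GM10861 was left out (0.27, adjusted p = 0.0540), and when the fit used no arrays beyond those of this comparison (0.0591).

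Calcitriol against estrogen, also matched for time, gave a VDR change of 0.38 ± 0.0623 (adjusted p = 0.00158 in limma), 1 of 9 probe sets called against 0.57% of all. Both agents against untreated gave 0.37 ± 0.0623 (adjusted p = 0.00156). These comparisons share arrays with the preceding pair and are given side by side only. Estrogen against untreated gave a VDR difference of 0.0597 (95% interval -0.0691 to 0.19, adjusted p = 0.983 in limma), and estrogen added to calcitriol -0.0762 (-0.21 to 0.0526, adjusted p = 0.781). The interaction of the agents was -0.14 (-0.32 to 0.0463, adjusted p = 0.992), so a response of VDR that is smaller in the presence of estrogen was not shown.

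**Figure D1:**
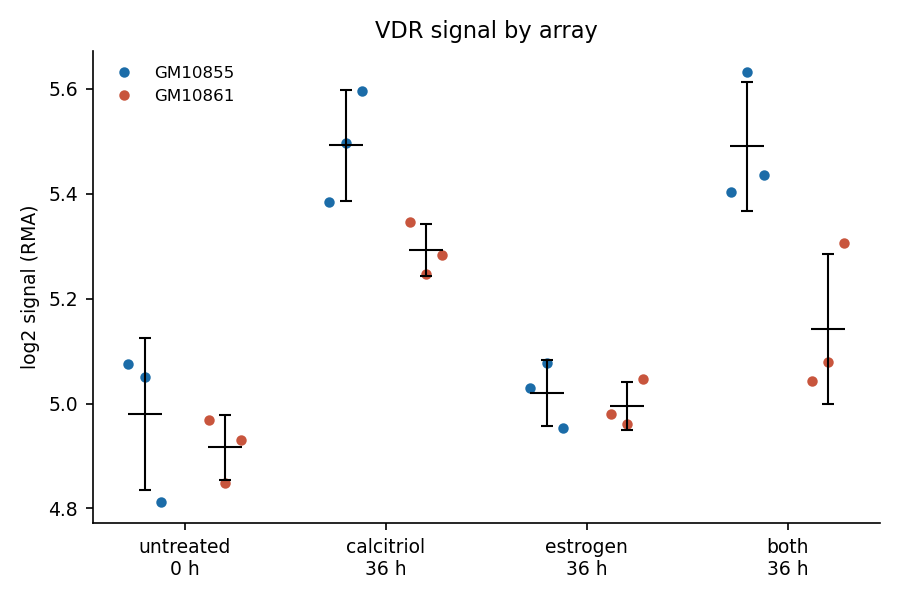
Log2 signal of VDR on each of the 24 arrays, by agent and line; points are arrays, the horizontal mark and bars are the mean ± SD of 3 arrays. In GM10855 the calcitriol and both-agent arrays (5.38 to 5.63) lie above all untreated and estrogen arrays (4.81 to 5.08), and in GM10861 the arrays with both agents (5.04 to 5.31) overlap the estrogen arrays.

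In both lines the VDR means with calcitriol, alone or with estrogen, lay above the means without it. In GM10855 the means were 5.49 ± 0.105 with calcitriol, 5.49 ± 0.123 with both agents, 5.02 ± 0.0626 with estrogen and 4.98 ± 0.145 untreated (SD, n = 3). There the calcitriol and both-agent groups overlapped, as did the estrogen and untreated groups, and a gap lay between these pairs. In GM10861 the means were 5.29 ± 0.0502, 5.14 ± 0.143, 4.996 ± 0.0455 and 4.92 ± 0.0612 in that order (SD, n = 3), and every neighbouring pair overlapped. By line, calcitriol against untreated gave 0.51 ± 0.0880 in GM10855 (adjusted p = 0.00262 in limma, where 0.509% of probe sets were called) and 0.38 ± 0.0880 in GM10861 (adjusted p = 0.154, where 0.104% were called). Calcitriol added to estrogen gave 0.47 in GM10855 (adjusted p = 0.00685, 0.632% called) and 0.15 in GM10861 (adjusted p = 0.991, 0.127% called). The difference between the lines, GM10861 minus GM10855, was -0.14 for the first response (95% interval -0.39 to 0.12, adjusted p = 0.863 in limma) and -0.32 for the second (-0.58 to -0.0665, adjusted p = 0.629). Neither passed over all probe sets.

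The retinoid X receptors were not called with any agent. RXRA (Entrez 6256), the partner most widely studied with VDR, read 6.54, 6.24 and 6.42 in untreated GM10855 and 6.11, 6.12 and 6.38 with calcitriol. In GM10861 it read 6.36, 6.49 and 6.39 untreated and 6.30, 6.43 and 6.38 with calcitriol. The groups overlapped in both lines. The averaged change was -0.12 ± 0.0672 (95% interval -0.26 to 0.0203, adjusted p = 0.847 in limma). Calcitriol added to estrogen gave -0.0883 (-0.23 to 0.0508, adjusted p = 0.831), estrogen against untreated -0.0012 (-0.14 to 0.14) and both agents against untreated -0.0895 (-0.23 to 0.0497). In GM10855 by itself both agents gave -0.24 (-0.44 to -0.0448, adjusted p = 0.211 in limma), from 6.24, 6.02 and 6.20 on the arrays.

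The 250 bases before the start of RXRA are shown from RefSeq (GRCh38.p14), as a stretch upstream of the main partner of VDR, with hexamers like those that VDR and the retinoid X receptors bind in capitals, found on either strand. The letters searched were AGGTCA or AGGTGA or AGTTCA or AGTTGA or GGGTCA or GGGTGA or GGTTCA or GGTTGA, and a vitamin D response element was taken as any 2 of them in direct repeat with 3 bases between.

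RXRA, chr9:134326205-134326454, plus strand: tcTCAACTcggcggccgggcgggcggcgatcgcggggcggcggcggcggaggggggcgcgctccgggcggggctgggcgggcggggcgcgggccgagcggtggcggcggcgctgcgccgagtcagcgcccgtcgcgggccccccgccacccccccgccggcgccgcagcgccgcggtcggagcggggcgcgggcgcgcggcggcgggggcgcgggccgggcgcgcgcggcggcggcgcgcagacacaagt

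This window held 1 such hexamer, a reverse-strand match at position -248 from the start, and 0 direct repeats, and 89.2% of its bases were G or C. Of 27305 genes in the promoter table, 55.6% had at least 1 hexamer and 0.183% a direct repeat in the same window. The windows of RXRB and RXRG also held 1 hexamer and 0 direct repeats each. Those of NCOA1, MED1, NCOA3 and NCOR1 held 0 hexamers and 0 direct repeats each. A match here is a description of letters, and its absence says only that the letters are not in this window. VDR and NCOA2 were not among the promoters used here.

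RXRB (Entrez 6257) was read by 3 probe sets that gave like values. For the first of them the lowest, median and highest of 12 arrays were 6.27, 6.48 and 6.69 in GM10855 and 6.28, 6.46 and 6.56 in GM10861. Because they are annotated to the same transcripts, they are readings of 1 gene and not replicates. In calcitriol against untreated their log2 differences were -0.0845, -0.0491 and -0.0649 (adjusted p = 0.922, 0.978 and 0.962 in limma), and in calcitriol added to estrogen -0.0125, -0.0367 and -0.0125 (adjusted p = 0.984, 0.932 and 0.984). RXRG (Entrez 6258), the retinoid X receptor of muscle and some neurons, lay between 3.02 and 3.56 on all 24 arrays. Its mean of 3.33 was below the log2 signal of 5 used as a filter, and the files hold no detection limit against which such a signal could be set. Its log2 differences were 0.0241 in calcitriol against untreated (95% interval -0.14 to 0.18) and -0.12 in both agents against untreated (-0.28 to 0.0435).

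**Figure D2:**
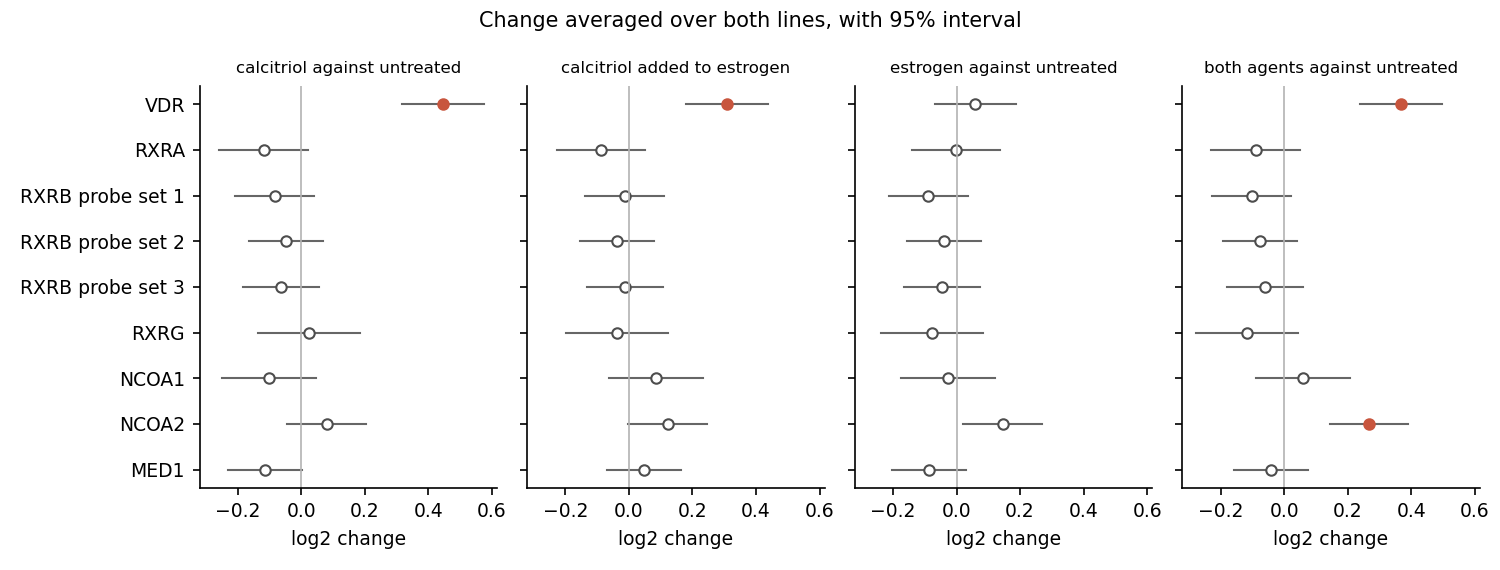
Log2 change of the 9 probe sets in 4 comparisons, averaged over both lines; points are estimates, bars 95% intervals from limma, and filled points were called at an adjusted p under 0.05. VDR is filled in every comparison that adds calcitriol (0.44, 0.31 and 0.37), NCOA2 is filled with both agents against untreated (0.27), and the remaining points are open.

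NCOA2 rose when both agents were given, with a call that did not hold in every refit. NCOA2 (Entrez 10499) is a steroid receptor coactivator that binds liganded nuclear receptors. In GM10855 it read 7.14, 7.05 and 7.30 untreated, 7.33, 7.39 and 7.43 with calcitriol, 7.39, 7.40 and 7.31 with estrogen and 7.64, 7.57 and 7.54 with both agents. The untreated arrays of GM10855 were lowest, the arrays with both agents highest, and neither overlapped the single agents. GM10861 gave 7.39, 7.43 and 7.31 untreated and 7.59, 7.54 and 7.35 with both agents, and these groups overlapped. Averaged over the lines, both agents against untreated gave 1.20-fold, a log2 change of 0.27 ± 0.0599 (95% interval 0.14 to 0.39, adjusted p = 0.0230 in limma). With VDR this made 2 of 9 probe sets called, against 1.15% of all.

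Leaving out any 1 of 5 arrays ended the NCOA2 call: array 2 of untreated GM10855 (0.24, adjusted p = 0.0711 in limma), array 3 of untreated GM10861 (0.0809), and, with both agents, array 1 of GM10855 (0.0710), array 1 of GM10861 (0.0779) or array 2 of GM10861 (0.0697). Centring each array on its median (0.0544) and a fit without the arrays of the other groups (0.0892) ended it too. The single agents gave 0.0803 for calcitriol (95% interval -0.0437 to 0.20, adjusted p = 0.929 in limma) and 0.15 for estrogen (0.0211 to 0.27, adjusted p = 0.920) against the same untreated arrays. At matched times, estrogen added to calcitriol gave 0.19 (0.0631 to 0.31, adjusted p = 0.446) and calcitriol added to estrogen 0.12 (-0.0018 to 0.25, adjusted p = 0.638). By line, both agents against untreated gave 0.42 in GM10855 (adjusted p = 0.00882 in limma, where 2.33% of probe sets were called) and 0.12 in GM10861 (adjusted p = 0.901, where 0.184% were called). The difference between the lines was -0.30 (-0.55 to -0.0561, adjusted p = 0.350).

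NCOA1 separated the lines rather than the agents. NCOA1 (Entrez 8648) is the steroid receptor coactivator first described for nuclear receptors. Its lowest, median and highest log2 signals over 12 arrays were 7.28, 7.53 and 7.84 in GM10855 and 6.67, 7.03 and 7.11 in GM10861. No array of GM10861 reached the lowest array of GM10855. The mean over the agents was lower in GM10861 by a log2 change of -0.59 ± 0.0504 (95% interval -0.69 to -0.49, adjusted p = 7.77e-10 in limma), and it kept its call whichever array was left out.

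The agents gave no called change of NCOA1. Averaged over the lines its log2 difference was -0.10 with calcitriol (95% interval -0.25 to 0.0469, adjusted p = 0.922 in limma), -0.0256 with estrogen (-0.17 to 0.12) and 0.0592 with both (-0.0884 to 0.21), each against untreated. In GM10855 it read 7.53, 7.28 and 7.48 untreated and 7.84, 7.57 and 7.69 with both agents, the latter all higher. GM10861 gave 7.05, 7.09 and 7.11 untreated and 7.06, 6.89 and 6.85 with both agents, where 1 array lay inside the untreated range and 2 below it. The changes were 0.27 and -0.15 (adjusted p = 0.185 and 0.868), and their difference of -0.42 (-0.71 to -0.12) did not pass over all probe sets (adjusted p = 0.271 in limma). With calcitriol GM10861 gave 6.67, 7.03 and 6.75, all below its untreated arrays (-0.27, 95% interval -0.48 to -0.062, adjusted p = 0.715 in limma), while GM10855 gave 7.48, 7.54 and 7.48, which overlapped its untreated arrays.

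**Figure D3:**
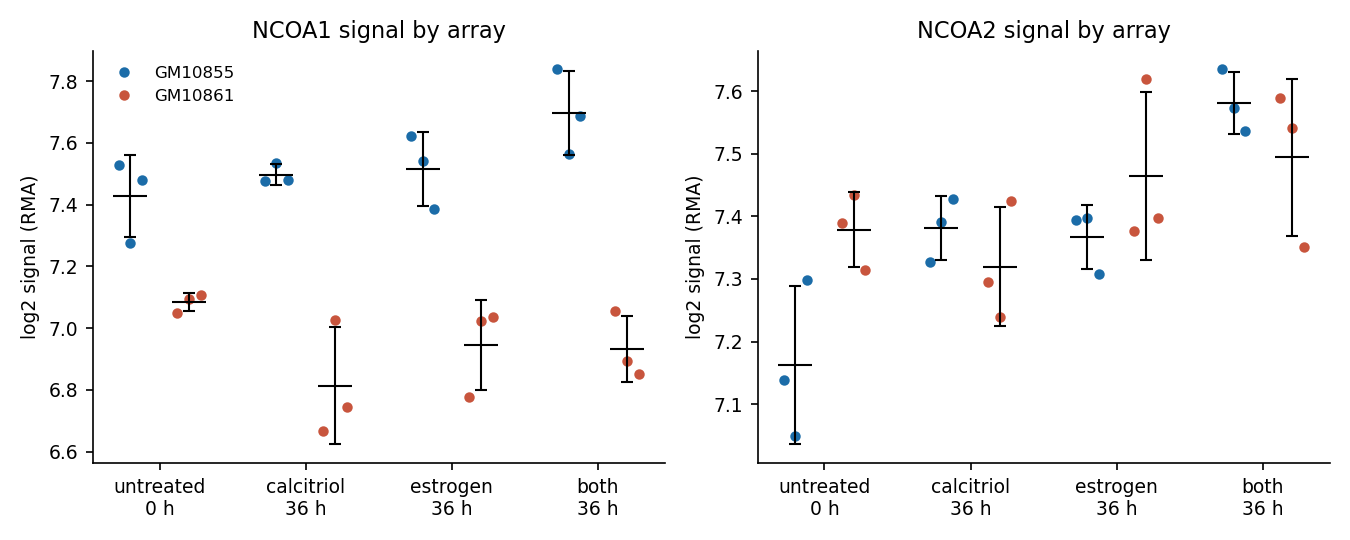
Log2 signal of NCOA1 and NCOA2 on each array, by agent and line, with the mean ± SD of 3 arrays. NCOA1 is lower on all GM10861 arrays (at most 7.11) than on all GM10855 arrays (at least 7.28), and NCOA2 in GM10855 is lowest untreated (7.05 to 7.30) and highest with both agents (7.54 to 7.64).

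MED1 (Entrez 5469), the Mediator subunit that contacts liganded VDR, read 8.04, 7.91 and 8.13 in untreated GM10855 and 8.07, 8.07 and 7.97 with calcitriol, which overlapped. Untreated GM10861 gave 8.31, 8.31 and 8.27 and the calcitriol arrays 8.004, 8.15 and 8.02, every calcitriol array being lower. The averaged change was -0.11 ± 0.0563 (95% interval -0.23 to 0.0029, adjusted p = 0.780 in limma), and GM10861 by itself gave -0.24 (adjusted p = 0.658). Neither change was called. Estrogen arrays of GM10861 read 8.05, 8.25 and 8.04, and its arrays with both agents lay between 8.09 and 8.22. These too were all below its untreated arrays, so every GM10861 group at 36 h lay below the group at 0 h. At matched times calcitriol added to estrogen gave 0.0467 (-0.0699 to 0.16, adjusted p = 0.911 in limma).

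Between the lines, averaged over the agents, 4 of 9 probe sets were called, 2 higher and 2 lower in GM10861, where 41.8% of all probe sets were called, 23.4% higher and 18.4% lower. Beside NCOA1, VDR was lower in GM10861 (-0.16 ± 0.0440, adjusted p = 0.00527 in limma), and RXRA (0.16 ± 0.0475, adjusted p = 0.0108) and MED1 (0.12 ± 0.0398, adjusted p = 0.0204) were higher. For VDR and RXRA the untreated arrays of the lines overlapped. Their untreated means in GM10861 and GM10855 were 4.92 and 4.98 (VDR) and 6.42 and 6.40 (RXRA). With both agents they were 5.14 and 5.49, and 6.48 and 6.16. MED1 had means of 8.30 and 8.03 untreated and 8.17 and 8.07 with both agents. The line difference within a single agent was not tested. By probe set, the share called was close to that of all probe sets. RXRB, which was not called, is read by 3 of the 9, so the share by gene was higher. The MED1 call was lost with cyclic loess between arrays (0.0308, adjusted p = 0.533). NCOA2 (0.0414), RXRG (0.0228) and the RXRB probe sets (-0.0439, -0.0170 and -0.0364) were not called. Differences between the lines in a response gave 0 called members in limma for calcitriol (0.00943% of all called), for calcitriol added to estrogen (0.00471%), for estrogen (0%) and for both agents (0.0141%), with 3, 1, 0 and 4 members at an unadjusted p under 0.05. Estrogen against untreated, estrogen added to calcitriol and the interaction of the agents had 0 called members in limma, where 0% of all probe sets were called, with 1, 2 and 0 members at an unadjusted p under 0.05.

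Other coactivators of the nuclear receptors were taken as lists. Of 29 measured Mediator genes other than MED1, 1 rose in calcitriol against untreated and in calcitriol added to estrogen, and 0 fell in limma, with 1 and 3 members at an unadjusted p under 0.05. Over all probe sets 0.618% rose and 0.0613% fell in the first of these comparisons, and 0.679% and 0.0754% in the second. The list's median changes were 0.0036 and -0.0290, against -0.0011 and -0.0102 over all probe sets. The gene was MED13 (Entrez 9969), which joins the kinase module to the Mediator core. MED13 read 8.22, 8.15 and 8.23 in untreated GM10855 and 8.62, 8.67 and 8.60 with calcitriol, without overlap. In GM10861 it read 8.24, 8.41 and 8.23 untreated and 8.43, 8.40 and 8.50 with calcitriol, with 1 calcitriol array inside the untreated range. The averaged changes were 0.29 ± 0.0535 in calcitriol against untreated (adjusted p = 0.00529 in limma) and 0.37 ± 0.0535 in calcitriol added to estrogen (adjusted p = 3.37e-04).

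MED13 had its highest means with both agents, where the arrays read 8.99, 8.73 and 8.88 in GM10855 and 8.62, 8.48 and 8.51 in GM10861, the latter overlapping calcitriol alone. Estrogen arrays read 8.49, 8.39 and 8.44 in GM10855, above its untreated arrays, and 8.17, 8.30 and 8.22 in GM10861, which overlapped them. Both agents against untreated gave 0.46 ± 0.0535 (adjusted p = 1.22e-05 in limma). Estrogen against untreated gave 0.0869 (95% interval -0.0239 to 0.20, adjusted p = 0.962), and calcitriol against estrogen, at matched times, 0.20 (0.0912 to 0.31, adjusted p = 0.116), which was called with trended robust eBayes (adjusted p = 0.0372). No other refit called MED13 in calcitriol against estrogen. The MED13 calls against untreated and in calcitriol added to estrogen were kept whichever array was left out.

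Of 29 measured coactivators outside Mediator, which included the acetyltransferases, arginine methyltransferases and SWI/SNF subunits, 1 rose in both comparisons of calcitriol and 0 fell in limma, with 2 and 2 probe sets at an unadjusted p under 0.05. The shares of all probe sets were 0.618% higher and 0.0613% lower in calcitriol against untreated, and 0.679% and 0.0754% in calcitriol added to estrogen. The median changes of the list were -0.0032 and 0.0176. The gene was KAT2B (Entrez 8850), a histone acetyltransferase that nuclear receptors recruit. KAT2B read 6.55, 6.47 and 6.67 in untreated GM10855 and 7.01, 7.07 and 7.20 with calcitriol. In GM10861 it read 6.97, 6.93 and 6.92 untreated and 7.06, 7.08 and 7.07 with calcitriol. The groups did not overlap in either line. Calcitriol against untreated gave 0.33 ± 0.0543 (adjusted p = 0.00141 in limma) and calcitriol added to estrogen 0.35 ± 0.0543 (adjusted p = 6.31e-04).

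By line the KAT2B change with calcitriol was 0.53 in GM10855 (adjusted p = 3.25e-04 in limma) and 0.13 in GM10861 (adjusted p = 0.911). The difference between the lines was -0.40 (95% interval -0.62 to -0.17) and did not pass over all probe sets (adjusted p = 0.479). For both agents against untreated it was -0.54 (adjusted p = 0.118), and it passed with trended robust eBayes on all arrays (adjusted p = 0.0448) and without array 2 of GM10855 with both agents (-0.62, adjusted p = 0.0424). It passed in no other refit. Estrogen against untreated gave a KAT2B difference of -0.0119 (-0.12 to 0.10, adjusted p = 0.998), and at matched times calcitriol against estrogen gave 0.34 (adjusted p = 0.00126). The 250 bases before the RefSeq start of KAT2B (GRCh38.p14) are shown because KAT2B, averaged over the lines, rose in every comparison that adds calcitriol.

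KAT2B, chr3:20040196-20040445, plus strand: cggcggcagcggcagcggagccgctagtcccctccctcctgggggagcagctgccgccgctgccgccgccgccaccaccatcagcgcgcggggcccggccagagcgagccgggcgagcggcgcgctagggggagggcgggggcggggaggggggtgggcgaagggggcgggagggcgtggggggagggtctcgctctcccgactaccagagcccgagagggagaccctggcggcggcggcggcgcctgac

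The window held 0 of the hexamers and 0 direct repeats, and 80.8% of its bases were G or C.

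**Figure D4:**
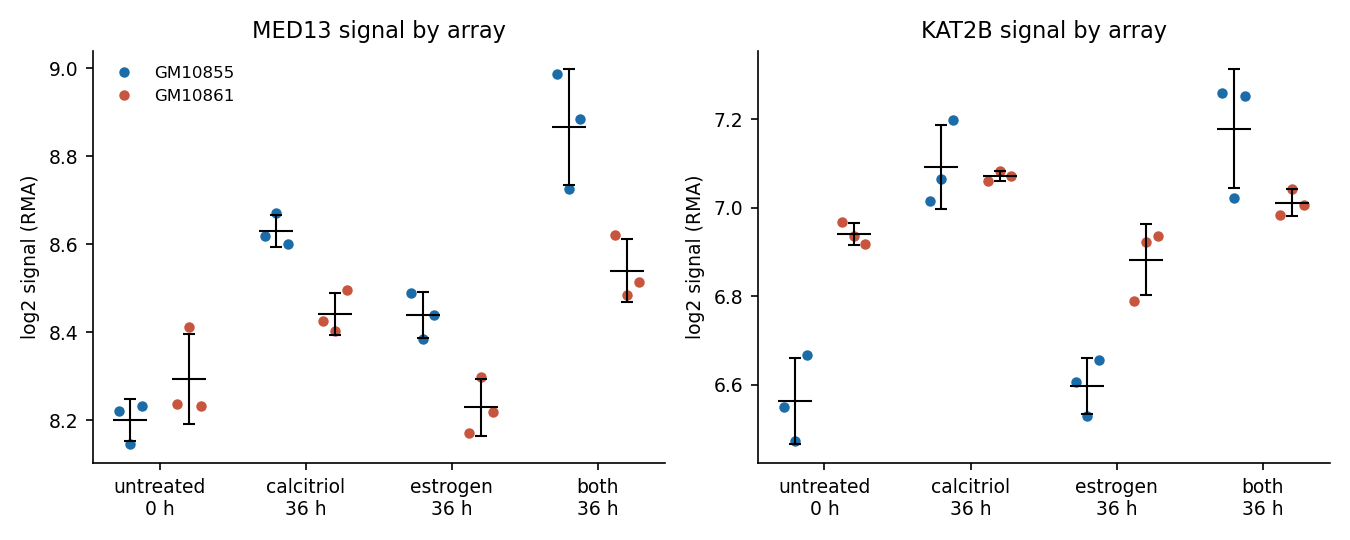
Log2 signal of MED13 and KAT2B on each array, by agent and line, with the mean ± SD of 3 arrays. MED13 has its highest means with both agents in both lines, and KAT2B in GM10855 steps from at most 6.67 without calcitriol to at least 7.01 with it.

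Corepressors and the other partners of the retinoid X receptors were too few to read a count of 0 as a result, since 0.679% of all probe sets were called in calcitriol against untreated and 0.754% in calcitriol added to estrogen. Of 19 measured corepressor genes 0 were called by limma in calcitriol against untreated and 0 in calcitriol added to estrogen, with 1 and 1 at an unadjusted p under 0.05 and median changes of 0.00036 and -0.0341. The smallest p-values in calcitriol against untreated were those of LCOR, a ligand-dependent corepressor (0.13 ± 0.0612, adjusted p = 0.760), and NRIP1, which represses liganded nuclear receptors (0.19 ± 0.0949, adjusted p = 0.784). In calcitriol added to estrogen, LCOR gave 0.0032 and NRIP1 0.20 (adjusted p = 0.994 and 0.617). Of 11 measured nuclear receptors that pair with a retinoid X receptor, 0 were called by limma in either comparison, with 0 at an unadjusted p under 0.05 in both. NR1I3, a xenobiotic receptor, gave -0.17 and PPARD, a fatty acid receptor, -0.0710 in calcitriol against untreated (adjusted p = 0.847 and 0.925).

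Vitamin D metabolism and retinoid supply were read beside the same shares of all probe sets called, 0.679% and 0.754%. Of 8 measured vitamin D metabolism genes 1 rose in both comparisons of calcitriol, CYP24A1 (Entrez 1591), the hydroxylase that inactivates calcitriol and a direct target of VDR. CYP24A1 read 3.10, 3.24 and 3.57 in untreated GM10855 and 4.90, 4.998 and 5.02 with calcitriol, and 3.34, 3.83 and 3.90 against 6.11, 6.21 and 6.08 in GM10861. No calcitriol array overlapped an untreated array in either line, and the untreated signals were about as dim as those of RXRG, where RMA compresses changes. The changes by line were 1.67 in GM10855 and 2.44 in GM10861, and their difference, 0.78 (95% interval 0.30 to 1.25), did not pass over all probe sets (adjusted p = 0.524 in limma). For calcitriol added to estrogen, which is matched for time, the lines differed by 1.14 (0.67 to 1.62, adjusted p = 0.140), and leaving out array 1 of the both-agent group of GM10861 made this pass (1.34, adjusted p = 0.0312). This line difference passed in no other refit. Of 10 measured retinoid supply genes 0 were called by limma in either comparison of calcitriol, with 1 and 2 at an unadjusted p under 0.05. ALDH1A1, which makes retinoic acid from retinal, gave 0.39 and 0.38 (adjusted p = 0.132 and 0.137) and was called with both agents against untreated (0.52 ± 0.106, adjusted p = 0.0107 in limma). By line, calcitriol against untreated gave 0.11 in GM10855 (4.10 ± 0.356 to 4.21 ± 0.318, SD, n = 3) and 0.67 in GM10861 (5.75 ± 0.181 to 6.42 ± 0.164), with a difference of 0.56 (95% interval 0.12 to 0.995) that did not pass over all probe sets (adjusted p = 0.701 in limma). ALDH1A1 lay between 3.76 and 4.47 on all 12 arrays of GM10855, a dim range where RMA compresses changes. The averaged change in calcitriol against untreated was called with array weights (0.44, adjusted p = 0.0242), without array 2 of untreated GM10855 (0.48, adjusted p = 0.0171) and without array 3 of GM10855 with calcitriol (0.48, adjusted p = 0.0183), and in calcitriol added to estrogen when the arrays of the other groups were left out of the fit (0.0136). The other refits called neither change of ALDH1A1. DHRS3, which reduces retinal, gave -0.0819 in calcitriol against untreated (adjusted p = 0.961).

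**Figure D5:**
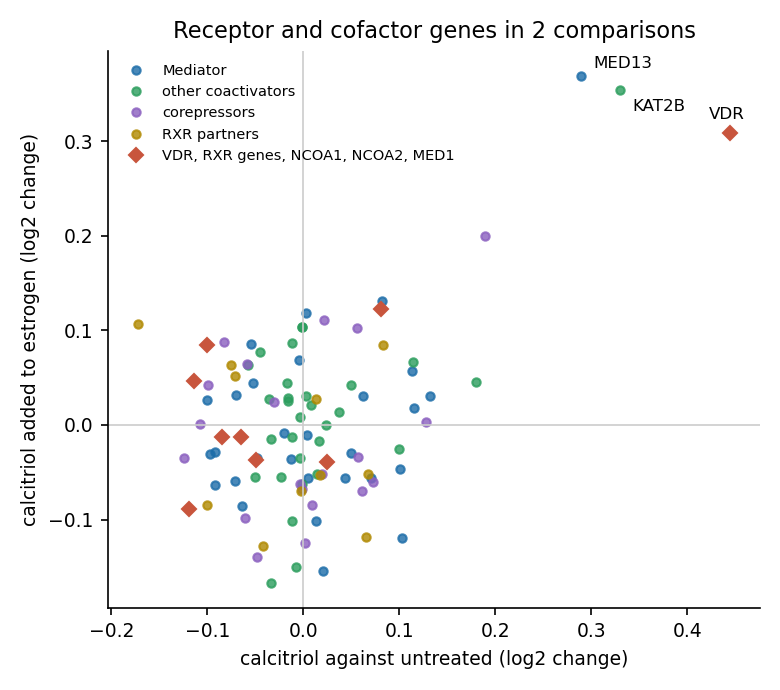
Log2 change in calcitriol against untreated (x axis) and in calcitriol added to estrogen (y axis), averaged over both lines, for the receptor genes and 4 cofactor lists; each point is a probe set, and the comparisons share no array. VDR (0.44, 0.31), KAT2B (0.33, 0.35) and MED13 (0.29, 0.37) stand at the upper right, and the other points lie between -0.17 (NR1I3) and 0.20 (NRIP1) on both axes.

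The genes most like VDR over the 24 arrays were found by the Pearson correlation of log2 signals after each line's mean was taken off, among 17559 probe sets. They were STS, steroid sulfatase (r = 0.91, Spearman's rho = 0.89), PPP1R2, a phosphatase inhibitor (0.90 and 0.87), DDIT4, an inhibitor of mTORC1 (0.89 and 0.91), CAMP, the cathelicidin gene (0.89 and 0.86), and CD79A, a B cell receptor chain (0.89 and 0.86). Those most opposed were IL10RA (-0.89 and -0.90), FRMD6 (-0.81 and -0.80) and ALCAM (-0.79 and -0.82). The arrays fall into groups with and without calcitriol, so these values describe a shared pattern over the groups. The 5 genes most like VDR changed by 0.63 to 2.46 in calcitriol against untreated, so the VDR change of 0.44 was smaller than each of them on the log2 scale. The VDR signal was dim, where RMA compresses changes, and the 5 genes were picked on these same arrays. A weaker response of VDR is therefore not shown by these sizes. For RXRA the nearest were TSPAN17, PIM2 and RHOC, with lower values (0.72, 0.72 and 0.71), and none of the 3 was called in calcitriol against untreated.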

How the data were processed

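RNA of 24 samples was hybridised to Affymetrix arrays after labelling by the maker's whole-transcript protocol, per the labels' protocols. The authors deposited 1 log2 signal per probe set and array. The submitters' processing notes name Affymetrix Expression Console 1.0.1 and RMA, which makes the array distributions equal and compresses changes of dim probe sets. A genome build, and whether all arrays were normalised as one set, is not given in the sources used here. Of 33297 probe sets, 19460 had 1 gene symbol, 1754 several and 12083 none in the platform's probe table.

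The 21214 probe sets with a symbol were fitted with limma 3.58.1 (R 4.3.3), unchanged from the deposit, with 1 mean per line and agent group over all 24 arrays (16 residual degrees of freedom). Contrasts were averaged over the lines, two-sided, adjusted by Benjamini-Hochberg over all probe sets, and called at an adjusted p under 0.05. The fit was tested on simulated data. Array numbers follow accession order and are names, not pairs. The genes, lists and tests were chosen with earlier results of these data known. Named were all probe sets of the listed genes, list genes called in a calcitriol comparison or else the 2 with the smallest p, and the genes most like VDR (5 and 3) and RXRA (3), leaving out predicted loci, pseudogenes and genes of immune receptor, HLA and Y-linked loci. ALDH1A1 is also given with both agents. Alternatives were a filter at a mean log2 signal of 5, all probe sets, median centring, cyclic loess, trended robust eBayes, array weights, a fit without the groups outside a comparison, an exact permutation for VDR, and leaving out each array. The number of arrays limits the precision. Overlap of arrays between groups is described gene by gene. The share of all probe sets whose arrays separate in this way is not given, so a separation without a call is a description only.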

Additional observations from a re-analysis of the deposited data

How the results depend on the processing

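VDR kept its call in calcitriol against untreated in each of 31 refits with limma (0.40 to 0.47, adjusted p up to 0.00325), and likewise with both agents against untreated and in calcitriol against estrogen. In calcitriol added to estrogen it kept its call in 29 of 31, with 0.31 when the groups outside the comparison were left out of the fit (adjusted p = 0.0591), where 0 members were called, and 0.27 to 0.33, with 0 to 1 members called, over the fits without 1 array. With both agents against untreated, 1 member was called after median centring and without the groups outside the comparison, and 1 to 2 without 1 array, the member lost being NCOA2 (0.24 to 0.30 over all 31 refits). The counts of called members in the other comparisons averaged over the lines did not change, except that cyclic loess took MED1 from the line difference. No paired analysis was possible because the labels give no replicate numbers. The filter at a mean log2 signal of 5 kept 8 of 9 probe sets and left out RXRG. VDR passed it through its calcitriol groups, its means without calcitriol being 4.98 and 5.02 in GM10855 and 4.92 and 4.996 in GM10861, so that refit is no support for its rise. Dim signals limit what the changes of RXRG, VDR and CYP24A1, and of ALDH1A1 in GM10855, can show.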
